A study of Rattus norvegicus with 4 samples.

Results

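The proteasome genes of the rat kidney were followed over 4 arrays: the subunits of its core, base and lid, its activators and its assembly factors. The members were the probe sets whose platform gene symbol is Psma, Psmb, Psmc, Psmd, Psme, Psmf or Psmg followed by a number. There were 44 such probe sets, for 41 genes, among 15866 probe sets that are not array controls. The core (Psma, Psmb) held 16 probe sets, base and lid (Psmc, Psmd) 18, and activators, inhibitor and assembly factors (Psme, Psmf, Psmg) 10. Another 7 rat genes that fit the naming pattern have no probe set with a single symbol and were not analysed here: Psma8, Psmb6, Psmb11, Psmc6, Psmd12, Psmd14 and Psme3.

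The study asks how nicotine before birth affects the kidney in 2 inbred rat strains, the spontaneously hypertensive rat (SHR), which develops high blood pressure, and Brown Norway (BN). The 4 groups were SHR exposed prenatally to nicotine (13 rats), SHR exposed prenatally to saline (12 rats), BN exposed to nicotine (12 rats) and BN exposed to saline (12 rats). The animals were male and 9 weeks old. RNA of a group was pooled in equal amounts and hybridised to 1 Affymetrix RAE-230A array, so that spread between animals cannot be seen and each group is 1 sample.

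The proteasome degrades proteins that carry ubiquitin chains. Its barrel-shaped core is built of outer alpha rings, which gate the entrance, and inner beta rings, which hold the catalytic sites. A cap of base and lid binds the tagged protein, removes the ubiquitin and unfolds the chain with a ring of ATPases. Other activators can replace the cap, and interferon exchanges the constitutive catalytic subunits for inducible ones, which favour peptides presented on class I molecules. In kidney tubule cells, as in other cells, it degrades damaged and short-lived regulatory proteins.

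Of the 44 probe sets, 41 reached 89.0 on every array, the limit used for a measured value, and 1, Psmb8, reached it on some arrays. The other 2, Psmb9 and Psmb10, stayed below it everywhere. Some members hardly differed between arrays: Psmb2, of the beta ring, read 560.6 and 562.5 in the SHR nicotine and saline pools, against 555.0 and 573.7 in the BN nicotine and saline pools. Signals of different probe sets depend on their probes, so levels are compared only between arrays.

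**Figure D1:**
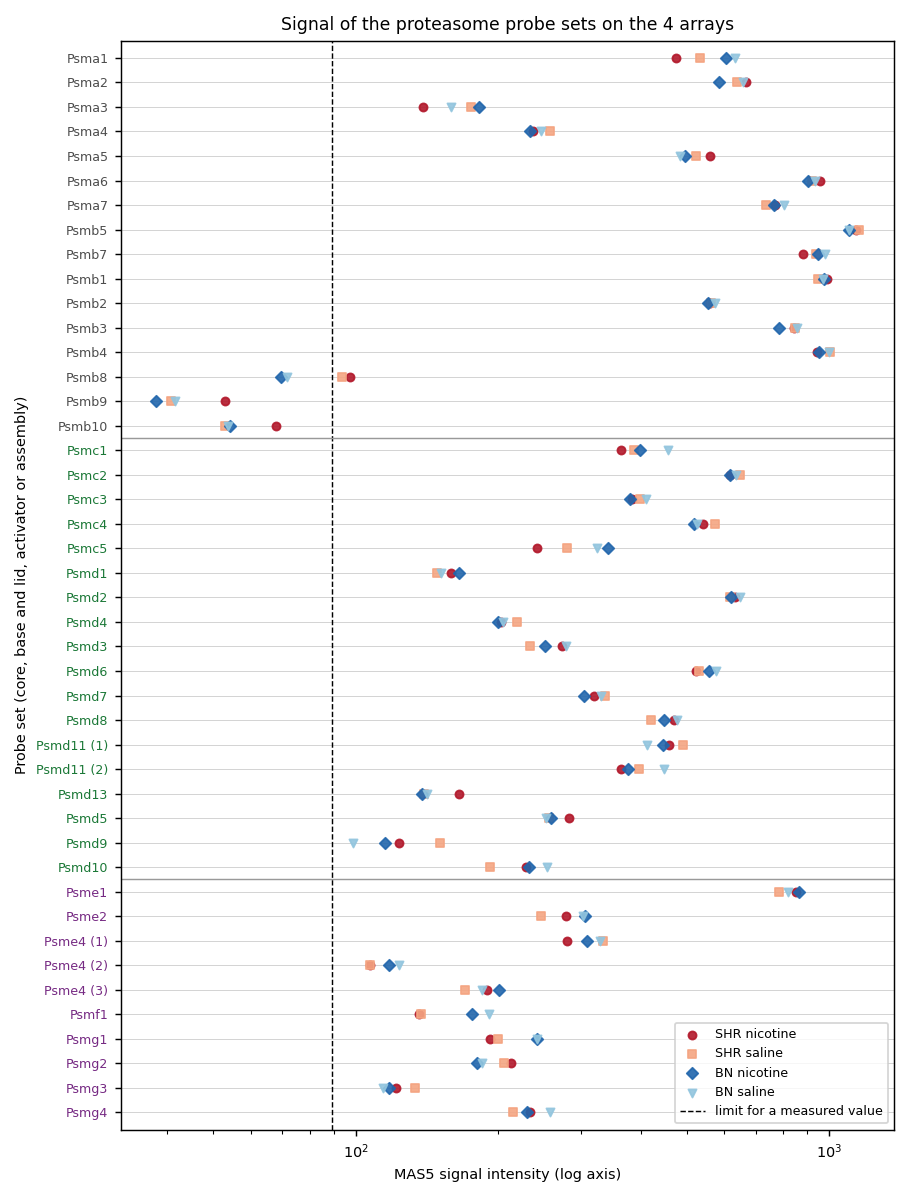
MAS5 signal intensity (log axis) of the 44 proteasome probe sets on the 4 arrays, 1 point per pool; the dashed line marks 89.0, and numbers in brackets tell apart probe sets of a gene. Most rows have their 4 points close together, while Psma1, Psmc5, Psmf1 and Psmg1 have both SHR points left of both BN points, and Psmb8, Psmb9 and Psmb10 lie around or below the line.

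The arrays carried kidney RNA by their markers: the 10 tubule markers tested (Umod, Lrp2, Aqp2 and others) and the 3 podocyte markers on the array reached the limit on at least 1 array. Of 6 genes of other organs, Myh1 alone reached it, at 1937.7 to 2207.7, while Alb, Apoa1, Myh6, Ins1 and Sftpc did not. The ratio of 3' to 5' signal for beta-actin, a sign of RNA integrity, was 1.34 and 1.39 in the SHR nicotine and saline pools, against 1.49 and 1.54 in the BN nicotine and saline pools. For Gapdh it was 1.11 and 1.002 in the SHR nicotine and saline pools, against 1.09 and 1.07 in the BN nicotine and saline pools. Actin integrity thus ran with strain, and its part in the strain results below was not tested. In RNA of whole tissue, fewer cells of a type and less RNA per cell cannot be told apart.

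Between strains, the proteasome as a whole stood at nearly the same level. Of 42 probe sets tested, 3 differed between SHR and BN averaged over treatments, which is 7.14% of them, against 18.1% of all 7037 probe sets tested (1273). All 3 fell in SHR: Psma1, a subunit of the alpha ring, Psmc5, an ATPase of the base, and Psmf1, known as a proteasome inhibitor in vitro. Of all probe sets, 9.42% fell and 8.67% rose, while 0 members rose. The p-values measure no spread between animals. Their error rests on 1 residual degree of freedom from these 4 pools and on 16.5 degrees borrowed from all probe sets tested. With limma, 8 members had an unadjusted p under 0.05, and 2145 probe sets overall did.

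The median log2 ratio of SHR over BN was -0.017 over the members and 0.0024 over all probe sets tested. Its SD was 0.17 over the members and 0.35 over all. The members' ratios ran from -0.42 (Psmf1) to 0.43 (Psmb8), and 25 fell below 0 and 17 above it. For 23 of the 42, the 95% interval of the strain difference lay within 0.3 of 0 on the log2 scale. Both SHR pools read below both BN pools for 10 members (23.8%, against 28.9% of all probe sets) and above them for 8 (19.0%, against 30.8%). Together that is 42.9% of the members, against 59.8% of all probe sets. Under nicotine 0 of 42 members were 1.5-fold apart between strains, against 8.44% of all probe sets, and under saline 1 was, against 8.12%. Under nicotine 25 members were higher in SHR and 17 lower, at a median of 0.016, and all probe sets split 50% to 50%. Under saline the split was the reverse, with 16 members higher in SHR and 26 lower, at a median of -0.033, while 51.5% of all probe sets were higher and 48.5% lower.

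**Figure D2:**
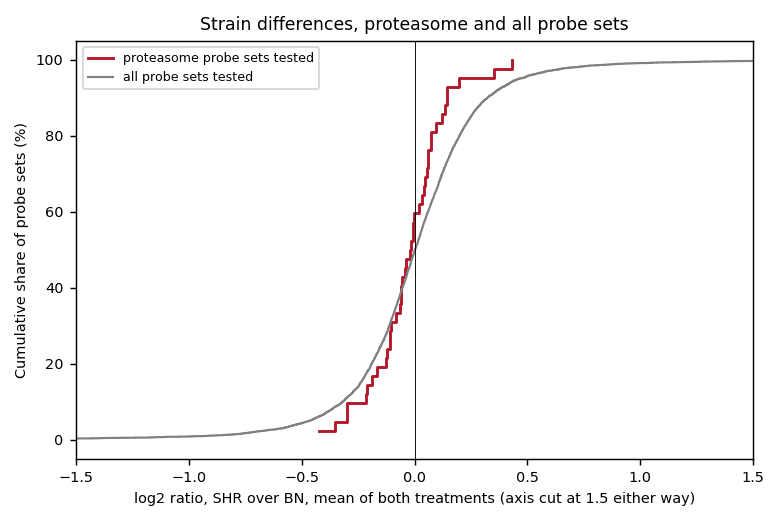
Cumulative share of probe sets (%) against the log2 ratio of SHR over BN averaged over treatments, for the 42 proteasome probe sets tested and for all 7037; the axis is cut at 1.5 on either side. The proteasome curve is steeper, with values between -0.42 and 0.43 and a median of -0.017.

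Limma has little to estimate error from here. Fits of strain alone without 1 pool leave 1 strain with a single pool, so only their ratios are given here. The ratios of the 3 genes stayed below 0 in each. The log2 ratio of Psma1 was -0.22 without SHR nicotine, -0.38 without SHR saline, -0.33 without BN nicotine and -0.27 without BN saline. In the same order Psmc5 had -0.25, -0.46, -0.31 and -0.39, and Psmf1 had -0.42, -0.43, -0.49 and -0.36.

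The alpha subunits form the outer rings of the core. Of 7 probe sets tested, Psma1 fell and 0 rose. Psma1 read 474.9 and 533.2 in the SHR nicotine and saline pools, against 606.1 and 632.3 in the BN nicotine and saline pools. Both SHR pools were below both BN pools, with the nicotine pool the lowest of the 4. The fitted level was 1.23-fold lower in SHR, at a log2 ratio of -0.30 (SE 0.079, adjusted p = 0.0128 with limma). The adjusted p with limma was 0.383 when no filter on low probe sets was set and lay between 0.00582 and 0.383 over 14 alternatives, 8 of which kept the call.

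The other 6 alpha subunits did not pass. Psma5 read 561.7 and 522.7 in the SHR nicotine and saline pools, against 495.5 and 485.2 in the BN nicotine and saline pools, and both SHR pools were above both BN pools. Its log2 ratio was 0.14 (SE 0.080, adjusted p = 0.243 with limma). Psma3 had its lowest value, 139.0, in SHR nicotine, beside 175.6 in SHR saline, 182.2 in BN nicotine and 159.3 in BN saline, so the groups overlapped. Psma2, Psma4, Psma6 and Psma7 had strain log2 ratios from -0.062 to 0.073. Psma2, Psma3, Psma5, Psma6 and Psma7 have pseudogenes or near copies in RefSeq, and whether these share the probe signal was not tested; Psma1 and Psma4 have none there. In all, 14 of the 41 member genes have such copies.

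The beta subunits that carry no catalytic site, Psmb1, Psmb2, Psmb3 and Psmb4, had log2 strain ratios from -0.0069 to 0.047. Psmb1 read 992.1 and 949.6 in the SHR nicotine and saline pools, against 974.7 and 971.7 in the BN nicotine and saline pools, and the groups overlapped. Its interval ran from -0.15 to 0.14 on the log2 scale. The constitutive catalytic subunits measured were Psmb5, which cuts after hydrophobic residues, and Psmb7, which cuts after basic ones. Psmb5 read 1138.2 and 1158.1 in the SHR nicotine and saline pools, against 1101.2 and 1101.8 in the BN nicotine and saline pools. Its log2 ratio of 0.060 (SE 0.068) did not pass, although the pools did not overlap. Psmb7 read 880.5 and 940.2 in the SHR nicotine and saline pools, against 946.2 and 980.6 in the BN nicotine and saline pools, at a log2 ratio of -0.082 (SE 0.070).

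The inducible catalytic subunits read near or below the limit. Psmb8, which takes the place of Psmb5, read 97.3 and 93.6 in the SHR nicotine and saline pools, against 69.7 and 71.6 in the BN nicotine and saline pools. Both SHR pools were above the limit and both BN pools below it. Psmb8 entered the test through its SHR values alone, and its log2 ratio of 0.43 (SE 0.18, adjusted p = 0.112 with limma), 1.35-fold, did not pass. Psmb9, which replaces Psmb6, read 52.9 and 40.7 in the SHR nicotine and saline pools, against 37.9 and 41.6 in the BN nicotine and saline pools. Psmb10, which replaces Psmb7, read 67.8 and 53.1 in the SHR nicotine and saline pools, against 54.2 and 53.8 in the BN nicotine and saline pools. For both genes SHR nicotine was the highest array and no array reached the limit, so a difference was not detectable here.

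In the RefSeq annotation Psmb8 and Psmb9 lie on chromosome 20 in the class II region, with Tap2 before Psmb8 and Tap1 between Psmb8 and Psmb9; Tap1 and Tap2 form the peptide transporter. Tap1 read 7.2 and 12.5 in the SHR nicotine and saline pools, against 20.9 and 19.8 in the BN nicotine and saline pools, all far below the limit. Tap2 read 24.7 and 25.5 in the SHR nicotine and saline pools, against 7.0 and 4.2 in the BN nicotine and saline pools, also below it. Of 7 class I processing genes tested, 2 rose in SHR, the chaperone Calr and the class I gene RT1-T24-3, and 0 fell. RT1-T24-3 read 159.2 and 164.8 in the SHR nicotine and saline pools, against 5.8 and 7.6 in the BN nicotine and saline pools, and entered the test through its SHR values alone. Whether probes match the sequence of both strains equally was not tested, for this gene or for any other strain difference given here. Of 5 interferon response genes tested, 2 rose in SHR: Irf7 (log2 0.89, SE 0.17, adjusted p = 0.000847 with limma) and Bst2 (log2 0.51, SE 0.12, adjusted p = 0.00545 with limma). Markers of immune cells moved with strain too: of 8 tested, 4 rose in SHR and 2 fell, at a median of 0.27. Beside these counts, 8.67% of all probe sets rose and 9.42% fell, and the lists hold few tested genes. Of the immune markers that fell, RT1-Bb entered through its BN values alone. Of those that rose, C1qa entered through its SHR values alone (133.8 and 149.8 in the SHR nicotine and saline pools, against 85.8 and 66.4 in BN). The summed signal of the 9 measured immune markers was 5206.5 and 4606.2 in the SHR nicotine and saline pools, against 4394.9 and 4005.5 in the BN nicotine and saline pools. Lyz2 weighed heavily in this sum, at 1742.4 and 1507.3 in the SHR nicotine and saline pools, against 1044.3 and 869.2 in BN. Of the 8 tested, 5 had strain ratios above 0, while RT1-Ba, RT1-Bb and RT1-Db1 were below 0. The sum therefore does not describe the markers as a set. The defining markers Ptprc, Cd3e, Cd3d, Cd8a and Itgam read below 30 on all 4 arrays. The part of immune cells in the Psmb8 values was not tested.

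The base opens the gate and unfolds substrates with its ATPases. Of 5 ATPase probe sets, Psmc5 fell in SHR and 0 rose. Psmc5 read 242.0 and 280.2 in the SHR nicotine and saline pools, against 341.8 and 323.5 in the BN nicotine and saline pools. The pools did not overlap, and the gap was wider under nicotine (1.41-fold) than under saline (1.15-fold); the difference between these was not tested. The fitted level was 1.28-fold lower in SHR, at a log2 ratio of -0.35 (SE 0.10, adjusted p = 0.0214 with limma). Over 14 alternatives the adjusted p with limma ran from 0.00858 to 0.565 and 6 kept the call. Each array centred on its median gave 0.0633 with limma, and quantile normalisation 0.0804.

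The other ATPases did not pass. Psmc1 read 362.8 and 386.8 in the SHR nicotine and saline pools, against 398.2 and 456.7 in the BN nicotine and saline pools, so the pools did not overlap and BN saline was the highest. Its log2 ratio was -0.19 (SE 0.087, adjusted p = 0.155 with limma). Psmc4 was 1.07-fold higher in SHR, and Psmc2 and Psmc3 had log2 ratios of 0.019 and -0.016.

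The scaffold subunits Psmd1 and Psmd2 and the ubiquitin receptor Psmd4 had strain log2 ratios from -0.043 to 0.058. The lid, which holds the deubiquitinating unit, had 7 probe sets, with ratios from -0.11 to 0.15 and 0 called. Psmd6 was the lid gene with both SHR pools lower, at 522.8 and 530.6, against 557.3 and 577.2 in the BN nicotine and saline pools. Psmd11, another lid subunit, has a pair of probe sets that disagree. The first read 459.1 and 491.5 in the SHR nicotine and saline pools, against 446.1 and 413.4 in the BN nicotine and saline pools, and the second 364.1 and 396.6 in the SHR nicotine and saline pools, against 375.9 and 447.1 in the BN nicotine and saline pools. Their log2 strain ratios were 0.15 and -0.11, and the pools overlapped only for the second.

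The 3 assembly chaperones of the base spread widely, with an SD of 0.28 over their log2 strain ratios. Psmd9 read 123.6 and 150.6 in the SHR nicotine and saline pools, against 115.4 and 98.8 in the BN nicotine and saline pools. Its SHR saline over BN saline ratio, 0.61 on the log2 scale, was the only member ratio past 1.5-fold in any of the 4 comparisons of single pools. Averaged over treatments its log2 ratio was 0.35 (SE 0.16, adjusted p = 0.137 with limma). Psmd10, also known as gankyrin, read 228.7 and 192.3 in the SHR nicotine and saline pools, against 232.8 and 254.2 in the BN nicotine and saline pools, at a log2 ratio of -0.21 (SE 0.12, adjusted p = 0.227 with limma). Both genes had non-overlapping pools in opposite directions. Psmd5 had a log2 ratio of 0.073.

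The activators, inhibitor and assembly factors leaned lower in SHR: 8 of 10 probe sets had a ratio below 0, with a median of -0.11. The 8 include every Psme4 probe set. Below 0 were 7 of 14 in the core (median 0.014) and 10 of 18 in base and lid (median -0.017). Of all 7037 probe sets tested, 3486 were below 0. Of the 10, 1 fell and 0 rose. The median deviation of the 10 from their own mean over the arrays was -0.010 in SHR nicotine, -0.10 in SHR saline, 0.053 in BN nicotine and 0.087 in BN saline. The classes were compared as a description only.

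Psmf1 had the most negative strain ratio of the members. It read 136.3 and 137.5 in the SHR nicotine and saline pools, against 176.0 and 191.6 in the BN nicotine and saline pools. The SHR values were almost equal and well below both BN values. The fitted level was 1.34-fold lower in SHR, at a log2 ratio of -0.42 (SE 0.13, adjusted p = 0.0262 with limma). Over 13 alternatives the adjusted p with limma ran from 0.0236 to 0.397 and 4 kept the call. With the floor at the 60th percentile Psmf1 was no longer bright enough to be tested.

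Psmg1 and Psmg2 pair to start the alpha ring, and neither passed the strain test. Psmg1 read 192.1 and 199.6 in the SHR nicotine and saline pools, against 241.3 and 241.1 in the BN nicotine and saline pools, with a gap much wider than the spread within a strain. Its log2 ratio of -0.30 (SE 0.11, adjusted p = 0.0648 with limma) did not pass. Raising the floor to the 60th percentile brought it past (adjusted p = 0.0349 with limma, range 0.0349 to 0.365 over 14 alternatives). Psmg2 read 213.3 and 205.4 in the SHR nicotine and saline pools, against 180.3 and 185.3 in the BN nicotine and saline pools, at a log2 ratio of 0.20 (SE 0.11, adjusted p = 0.268 with limma). Psmg3 and Psmg4, which also assist the alpha ring, had ratios of 0.14 and -0.12.

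Psme1 and Psme2 form an interferon-induced activator. Psme2 read 278.3 and 246.7 in the SHR nicotine and saline pools, against 304.8 and 302.4 in the BN nicotine and saline pools, and the SHR pools were the lower ones. Its log2 ratio was -0.21 (SE 0.099, adjusted p = 0.156 with limma). Psme1, its partner, read 853.0 and 785.7 in the SHR nicotine and saline pools, against 861.9 and 820.2 in the BN nicotine and saline pools, at a ratio of -0.038, and the groups overlapped. Psme1 and Psme2 have pseudogenes in RefSeq. Psme4, a large nuclear activator, has 3 probe sets. The first read 279.8 and 333.0 in the SHR nicotine and saline pools, against 308.0 and 327.5 in the BN nicotine and saline pools. The second read 107.3 and 107.2 in the SHR nicotine and saline pools, against 117.7 and 123.4 in the BN nicotine and saline pools, and it alone had no overlap. The third read 189.1 and 170.0 in the SHR nicotine and saline pools, against 200.6 and 185.1 in the BN nicotine and saline pools. The strain log2 ratios were -0.057, -0.17 and -0.10, the same sign in each, and 0 of the 3 passed.

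**Figure D3:**
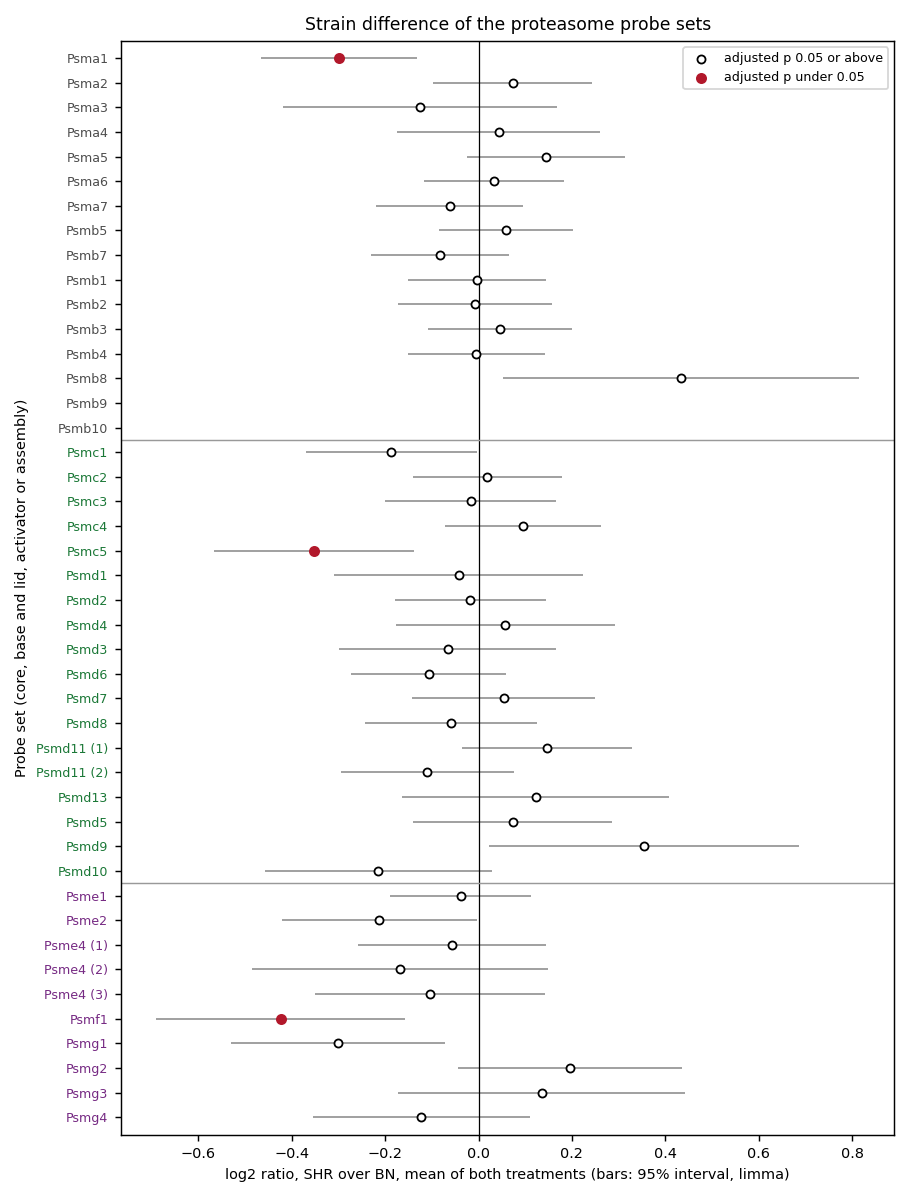
Log2 ratio of SHR over BN averaged over treatments, with 95% intervals from limma, for the 42 proteasome probe sets tested (2 pools per strain); filled points have an adjusted p under 0.05. Psma1, Psmc5 and Psmf1 are filled, at -0.30, -0.35 and -0.42, and Psmb8 has the widest interval on the positive side.

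**Figure D4:**
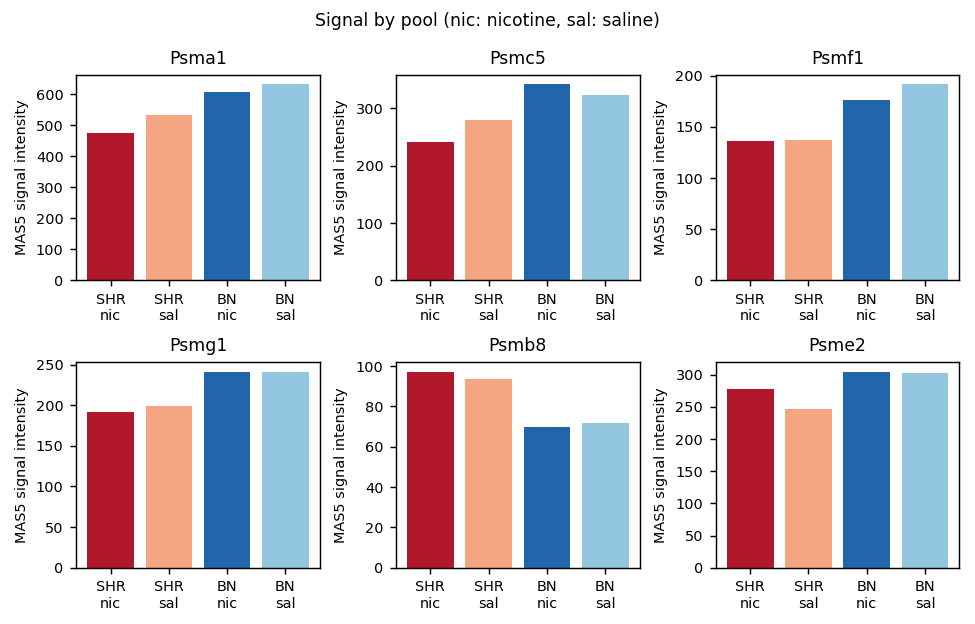
MAS5 signal intensity of 6 proteasome genes in the 4 pools, 1 bar per pool, from SHR nicotine on the left to BN saline on the right. Psma1, Psmc5, Psmf1, Psmg1 and Psme2 have both SHR bars below both BN bars, and Psmb8 has both above.

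The promoters of the 3 genes that fell in SHR are shown with those of Psmb8 and Psme2, which interferon induces and neither of which passed the strain test. They come from RefSeq (GRCr8, a BN genome, so SHR alleles are not shown) and run from 250 bases before the transcript start to 50 after it. The windows are chr1:177887808-177888107 on the minus strand for Psma1, chr10:91687303-91687602 on the plus strand for Psmc5 and chr3:160720866-160721165 on the minus strand for Psmf1. Psmb8 is at chr20:4656982-4657281 on the minus strand and Psme2 at chr15:33052702-33053001 on the minus strand. Capitals mark matches of GAAA, any 2 bases and GAAA, the core of sites for interferon regulatory factors, and of TGAC, any 3 bases and GC, the core of antioxidant response elements that Nfe2l1 and Nfe2l2 bind, searched on both strands.
Psma1: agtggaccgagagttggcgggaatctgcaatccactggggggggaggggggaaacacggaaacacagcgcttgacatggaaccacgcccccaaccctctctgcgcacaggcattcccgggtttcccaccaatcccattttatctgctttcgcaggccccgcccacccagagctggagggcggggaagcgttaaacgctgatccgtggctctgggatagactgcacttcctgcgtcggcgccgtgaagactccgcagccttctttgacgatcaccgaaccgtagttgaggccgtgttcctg
Psmc5: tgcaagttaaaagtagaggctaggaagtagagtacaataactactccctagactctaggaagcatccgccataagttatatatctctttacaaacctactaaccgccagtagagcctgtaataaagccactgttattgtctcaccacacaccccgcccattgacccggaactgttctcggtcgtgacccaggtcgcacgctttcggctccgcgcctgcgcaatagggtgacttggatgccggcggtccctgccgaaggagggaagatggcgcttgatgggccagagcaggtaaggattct
Psmf1: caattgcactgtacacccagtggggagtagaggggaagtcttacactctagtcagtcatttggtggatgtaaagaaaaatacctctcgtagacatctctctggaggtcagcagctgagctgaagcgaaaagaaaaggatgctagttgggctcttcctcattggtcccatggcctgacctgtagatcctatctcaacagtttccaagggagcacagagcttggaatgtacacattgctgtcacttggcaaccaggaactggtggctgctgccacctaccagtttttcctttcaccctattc
Psmb8: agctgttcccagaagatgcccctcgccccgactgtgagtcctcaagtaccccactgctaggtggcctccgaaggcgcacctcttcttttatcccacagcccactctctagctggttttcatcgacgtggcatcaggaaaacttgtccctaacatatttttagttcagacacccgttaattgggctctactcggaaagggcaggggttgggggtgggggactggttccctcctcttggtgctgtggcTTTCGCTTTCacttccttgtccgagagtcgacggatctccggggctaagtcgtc
Psme2: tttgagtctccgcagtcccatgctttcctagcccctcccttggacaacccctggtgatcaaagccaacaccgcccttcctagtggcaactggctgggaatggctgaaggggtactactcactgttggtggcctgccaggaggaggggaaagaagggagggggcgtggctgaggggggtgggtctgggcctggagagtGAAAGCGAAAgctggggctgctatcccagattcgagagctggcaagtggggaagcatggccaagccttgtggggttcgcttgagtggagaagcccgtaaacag
Psmb8 and Psme2 each hold 1 match of the first motif, beginning 4 and 53 bases before the start, and Psma1, Psmc5 and Psmf1 hold neither motif in these windows. Promoters were found for 39 of the 41 member genes. The first motif stood in 7 of them (17.9%: Psma4, Psmb3, Psmb8, Psmb10, Psmd7, Psme2 and Psmg4), against 3.92% of all 33469 promoters in the RefSeq table. The second stood in 7 (17.9%: Psma3, Psmb2, Psmb5, Psmd1, Psmd3, Psmd9 and Psme4), against 12.1% of all. The RefSeq table was used whole, without matching it to the members. The median GC content was 56.0% in the member promoters, against 51.7% in all, and its part in the motif shares was not tested. A match is letters in a window, and no binding was measured.

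Nicotine changed no proteasome probe set detectably. Averaged over strains, 0 of 41 passed the test and 0% of all 6924 probe sets did; with limma, 1 member and 376 probe sets had an unadjusted p under 0.05. The member was the second Psmd11 probe set, at a log2 ratio of -0.19 (SE 0.087, adjusted p = 0.919 with limma), while the first stood at 0.0057. The standard errors of the members ran from 0.067 to 0.16, which limits what could be detected for a single gene.

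The members leaned slightly to lower values under nicotine, with a median log2 ratio of -0.031, against 0.0010 over all probe sets tested. In 17 of 41 (41.5%) the nicotine pool read below the saline pool in both strains, against 25% of all probe sets, and in 7 (17.1%) above it in both, against 24.4%. The saline pool of BN was the highest of the 4 arrays for 16 of the 42 members, a count that was not made over all probe sets. In a fit of treatment alone without BN saline the median was -0.0016, and without SHR saline it was -0.058. With strain left out, such fits mix strain with treatment. Members of a complex share the arrays and are not replicates, so these counts describe 4 pools.

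Within SHR the nicotine ratio was below 0 for 23 of 42 members (54.8%, against 51.7% of all probe sets) and above it for 19, against 48.3%, with a median of -0.010 against -0.0068 over all. Within BN it was below 0 for 28 of 41 (68.3%, against 48.9%) and above it for 13, against 51.1%, with a median of -0.048 against 0.0040. In both strains 0 members were 1.5-fold apart, against 1.98% of all probe sets in SHR and 1.63% in BN. These ratios set 1 pool against 1 pool and have no replicate check.

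By class, 10 of 13 core probe sets, 11 of 18 in base and lid, and 6 of 10 activators and assembly factors had an average below 0. Of all 6924 probe sets tested, 3445 had such an average. Each of the 5 ATPases did, from -0.052 (Psmc4) to -0.15 (Psmc1). Psmc1 read 362.8 in SHR nicotine, against 386.8 in SHR saline, and 398.2 in BN nicotine, against 456.7 in BN saline. Its average of -0.15 (SE 0.086) did not pass (adjusted p = 0.997 with limma). Psma1 had -0.11, at -0.17 in SHR and -0.061 in BN. In fits of treatment alone, with strain left out, it became 0.062 without SHR nicotine and 0.0091 without BN saline. Strain and treatment are mixed in such fits. Psma4, of the alpha ring, read 237.2 in SHR nicotine, against 258.0 in SHR saline, and 233.8 in BN nicotine, against 246.4 in BN saline. Psmb4, of the beta ring, read 942.2 in SHR nicotine, against 1003.8 in SHR saline, and 952.4 in BN nicotine, against 1000.0 in BN saline. Their averages were -0.099 and -0.081, each below 0 in both strains.

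Of the 5 activator probe sets, 3 had an average above 0, beside 3479 of all 6924 probe sets tested. Psme1 was above its saline level in both strains, with 853.0 in SHR nicotine, against 785.7 in SHR saline, and 861.9 in BN nicotine, against 820.2 in BN saline. Its average was 0.095 (SE 0.071) and did not pass. Psme2 averaged 0.092. The probe sets of Psme4 disagreed, with averages of -0.17, -0.033 and 0.13. Psmd1, a scaffold of the base, read 159.4 in SHR nicotine, against 148.5 in SHR saline, and 165.4 in BN nicotine, against 151.8 in BN saline, which averaged 0.11 and was above 0 in both strains. Neither Psmb9 nor Psmb10 could be tested, nor Psmb8, whose means over strains were below the limit.

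**Figure D5:**
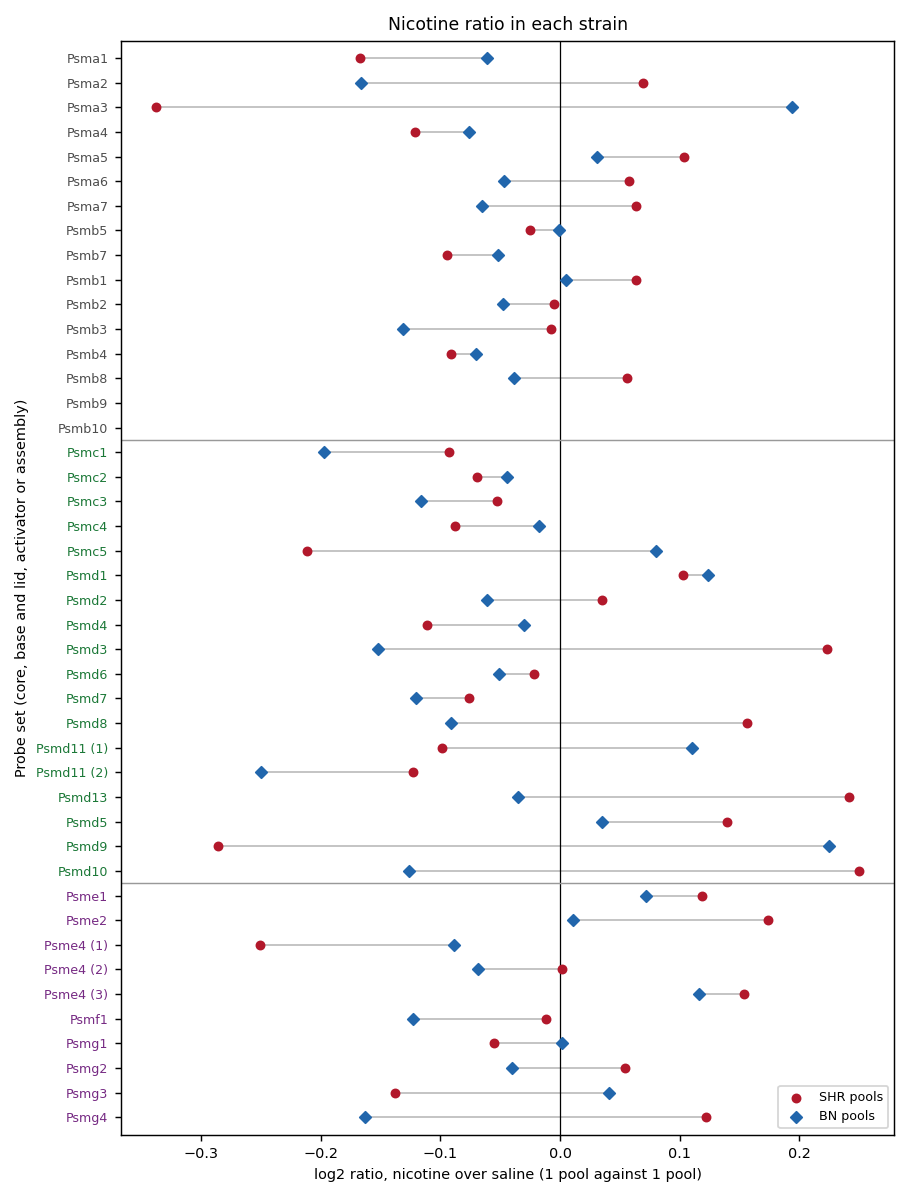
Log2 ratio of nicotine over saline in SHR and in BN, 1 pool against 1 pool, for the 42 proteasome probe sets measured on at least 1 array; lines join the values of a probe set, and Psmb9 and Psmb10 are left blank. Most BN points lie left of 0 (28 of the 41 measured in BN), and Psma3, Psmd3, Psmd9 and Psmd10 have the strains far apart on opposite sides of 0.

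Partners of the proteasome and the ubiquitin system were read from a list of 30 genes, 21 of them on the array and tested. In SHR against BN, 2 rose and 1 fell, at a median of -0.054, beside 18.1% of all probe sets called (8.67% higher and 9.42% lower). Uba6, an enzyme that activates ubiquitin, read 172.2 and 163.8 in the SHR nicotine and saline pools, against 119.9 and 117.6 in the BN nicotine and saline pools (log2 0.50, SE 0.13, adjusted p = 0.0134 with limma). The shuttle Ubqln4 rose by 0.40 (SE 0.10, adjusted p = 0.0109 with limma). Zfand5, which stimulates the proteasome, read 392.4 and 398.5 in the SHR nicotine and saline pools, against 531.8 and 523.3 in the BN nicotine and saline pools (log2 -0.42, SE 0.083, adjusted p = 0.00145 with limma). The pools of the strains did not overlap for these 3, as for 59.8% of all probe sets.

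The core assembly factor Pomp, the lid subunit Sem1 and the ubiquitin receptor Adrm1 did not pass, at 0.056, -0.021 and -0.20. Nfe2l1, the factor that raises proteasome genes when the proteasome is blocked, stood at -0.12 (SE 0.11), and Ddi2, the protease that activates it, at 0.32 (SE 0.13, adjusted p = 0.0927 with limma). For nicotine, 0 of the 21 passed. With limma, 1, Nfe2l2, which governs antioxidant genes, had an unadjusted p under 0.05 (log2 0.31, SE 0.079, adjusted p = 0.323).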

How the data were processed

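The authors deposited 1 table of MAS5 signal intensity on a linear scale, per the submitters' processing notes. Which MAS5 version and options were used is not stated there. Every array had a 2% trimmed mean of 150.0, and the values were used as deposited. The authors had pooled RNA within each group, per the series' design text.

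Gene names came from the platform annotation: 12783 probe sets have 1 symbol, 312 several and 2771 none. A floor of 44.5, the 40th percentile over the 4 arrays, was set under all signals before log2. limma 3.58.1 in R 4.3.3 fitted strain and treatment additively, with the prior variance trended on intensity and p-values adjusted by Benjamini-Hochberg, which leaves 1 residual degree of freedom. The prior of eBayes counted for 16.5 degrees of freedom (strain) and 14.0 (nicotine). The fit was tested on simulated data. A probe set entered if the higher of its 2 group means reached 89.0, which is 2 times the floor. Alternatives changed the floor, scaling, trend, filter, probe sets, model and arrays. Figures were drawn with matplotlib 3.10.9.

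Members, lists and motifs were chosen with earlier results of these data known. Values are named for members past the threshold, for inducible subunits and their partners, for the 3 largest strain and nicotine differences in each class, and for genes with several probe sets.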

Additional observations from a re-analysis of the deposited data

Results flagged for a closer look

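The nicotine ratio of 3 genes had opposite signs in SHR and BN, with both ratios at least 0.15 on the log2 scale; a limit chosen after the values were seen. With 1 pool per group the difference between strains was not tested. For Psma3, of the alpha ring, the log2 ratio was -0.34 in SHR and 0.19 in BN, a difference of -0.53. For Psmd9, a base assembly chaperone, it was -0.29 in SHR and 0.22 in BN, a difference of -0.51. For Psmd3, of the lid, it was 0.22 in SHR and -0.15 in BN, a difference of 0.38. Psmd10, another base assembly chaperone, missed that limit in BN alone, with 0.25 in SHR and -0.13 in BN, also a difference of 0.38. Over the 41 members tested for nicotine, 11 were higher with nicotine in SHR and lower in BN, and 6 the reverse. Of all probe sets tested, 25% were lower with nicotine in both strains and 24.4% higher in both, against 41.5% and 17.1% of the members. Opposite signs, and ratios past the 0.15 limit, were not counted over all probe sets, so these are not shown to be particular to the members. No group held enough samples to look for an outlying one.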

How the results depend on the processing

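The strain ratios of Psma1, Psmc5 and Psmf1 kept their sign in all alternatives that could test them, and the median strain ratio of the members stayed between -0.030 and 0.014. The count of 3 members past the threshold was 1 after centring on medians (Psma1) and after cyclic loess (Psma1). Quantile normalisation, a prior with no trend and a test of all probe sets each gave 0, where 4, 6 and 4 members had an unadjusted p under 0.05 with limma. Of all probe sets, 744, 830, 612 and 0 passed after quantile normalisation, cyclic loess, no trend and no filter (1719 at an unadjusted p under 0.05 with limma), in place of 1273. Leaving out 1 pool gave 0 to 2 members and 373 to 609 probe sets; the strain with 1 pool left was assumed to vary like the other. For nicotine no member passed in any alternative, while the floor at the 20th percentile, the 60th percentile and the pseudocount gave 1, 12 and 4 probe sets in place of 0. The fits without 1 pool left strain out of the nicotine model, so strain and treatment are mixed in them. In these the median nicotine ratio of the members ran from -0.058 to -0.0016. That of Psma1 changed sign without SHR nicotine (0.062) and without BN saline (0.0091), and ran from -0.29 to 0.062. Within each strain the Psma1 ratio was below 0 (-0.17 in SHR and -0.061 in BN). Of 246 values of named members under the alternatives, 220 kept sign and side, 23 lost the call, 1 gained it and 2 changed sign. Most of the 246 had no call to lose. The 23 lost calls were the strain calls of Psma1, Psmc5 and Psmf1, which held in 8 of 14, 6 of 14 and 4 of 13 alternatives. The causes were not tested. No analysis of paired replicates was possible, since each group is 1 pool on 1 array. Signal near the floor limits Psmb8, Psmb9 and Psmb10.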
